A study of Homo sapiens with 8 samples.

Results

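Phospholipases are enzymes that cut membrane phospholipids, and the cell reads several of the fragments as signals. Phospholipase C (PLC) splits phosphatidylinositol bisphosphate into inositol trisphosphate, which releases calcium from the endoplasmic reticulum, and diacylglycerol, which activates protein kinase C. Phospholipase D (PLD) releases phosphatidate, phospholipase A2 (PLA2) frees fatty acids such as arachidonate for eicosanoid synthesis, and patatin-like and B-type phospholipases take part in lipid turnover. In breast epithelium several of these enzymes act downstream of growth factor receptors of the ERBB family and of receptors coupled to G proteins.

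The genes described here were those whose symbol placed them in the PLC, PLD, PLA2G, phospholipid phosphatase (PLPP), patatin-like (PNPLA) or B-domain (PLBD) families and ended in a number with an optional letter. PNPLA2 was left out. This gave 54 genes of the 30434 in the table, and 41 of them passed the filter on low counts. The cells were SKBR3, an established human breast cancer line with amplified ERBB2, grown in DMEM with fetal bovine serum. Of the 8 RNA sequencing libraries, 4 came from control cells, labelled WT, and 4 from cells carrying lentiviral short hairpin RNAs against the transcription factor FOXA1 in a stable line. The labels name neither a promoter for the hairpins nor a control vector, and nothing says whether replicates were separate cultures, so p-values measure only the spread between these libraries.

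Library totals ran from 19087878 to 23786684 counts, so that 3 counts amount to 0.123 to 0.153 CPM, that is, counts per 1000000 after scaling. FOXA1 itself had 4180, 4239, 4071 and 4397 counts in the control libraries and 89, 87, 83 and 92 in the knockdown libraries, so the labels held for the targeted gene. All 6 markers listed for SKBR3 (ERBB2, GRB7, KRT8, KRT18, KRT19 and EPCAM) were detected in both groups. Their summed level lay between 16543 and 18446 CPM in control and between 10987 and 11861 CPM in knockdown. Of these, ERBB2, KRT19 and GRB7 fell by 2.45, 1.87 and 1.54 on the log2 scale, and KRT18, EPCAM and KRT8 rose by 0.58, 0.33 and 0.31. Of the markers of other cell types, 5 of 6 for fibroblasts had a row, with a summed level of 5.27 to 6.98 CPM in control and 10.8 to 11.9 CPM in knockdown, and DCN had at most 1 count in any library. Of these, COL3A1 and PDGFRB were higher and COL1A1 lower. The 3 endothelial markers summed to 20.7 to 22.1 CPM and 19.7 to 22.4 CPM, with VWF lower (5.22 to 0.845 CPM) and CDH5 higher (16.1 to 20.1 CPM), and the 3 leukocyte markers with a row to at most 0.863 and 0.983 CPM. The part of these markers in the results below was not tested.

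Upstream sequences are shown for 4 genes with a RefSeq window, chosen after their values were seen. PLPP7, PLCH1, PLD1 and PLA2G10, which differed more than PLA2G6, have windows with no match to the motifs below. PLA2G2A and PLA2G2F had few or no counts left in knockdown, while PLCG2 and PLA2G6 rose. Each window holds 250 bases before and 50 after an annotated start site on GRCh38.p14, written 5′ to 3′ on the gene's strand. Capitals mark matches, on either strand, to forms of the forkhead recognition sequence. The first form searched was TGTTTAC and a second form of it was TGTTTGC. The others were TATTTAC and, as the last of the set, TATTTGC. None of the matches shown overlapped another.
PLA2G2A, farthest upstream of its starts (chr1:19980385-19980684, minus strand): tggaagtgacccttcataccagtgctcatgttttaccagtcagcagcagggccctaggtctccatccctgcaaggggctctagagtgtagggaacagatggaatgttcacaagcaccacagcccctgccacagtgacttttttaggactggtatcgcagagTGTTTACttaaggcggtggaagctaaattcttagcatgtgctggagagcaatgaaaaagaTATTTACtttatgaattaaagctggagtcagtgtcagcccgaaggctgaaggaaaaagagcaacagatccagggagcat
PLA2G2A, middle start (chr1:19979610-19979909, minus strand): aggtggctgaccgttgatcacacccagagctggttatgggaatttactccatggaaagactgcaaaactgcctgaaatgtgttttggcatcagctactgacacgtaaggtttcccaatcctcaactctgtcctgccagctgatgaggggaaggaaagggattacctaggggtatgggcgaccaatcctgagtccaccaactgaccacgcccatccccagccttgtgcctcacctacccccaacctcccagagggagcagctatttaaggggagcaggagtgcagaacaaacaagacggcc
PLA2G2F (chr1:20139073-20139372, plus strand): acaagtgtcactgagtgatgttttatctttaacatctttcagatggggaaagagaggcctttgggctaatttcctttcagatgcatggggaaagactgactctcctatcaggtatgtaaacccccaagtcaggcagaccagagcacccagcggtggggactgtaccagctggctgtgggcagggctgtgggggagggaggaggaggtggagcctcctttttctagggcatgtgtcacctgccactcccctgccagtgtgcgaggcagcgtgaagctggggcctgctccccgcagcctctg
PLCG2 (chr16:81738791-81739090, plus strand): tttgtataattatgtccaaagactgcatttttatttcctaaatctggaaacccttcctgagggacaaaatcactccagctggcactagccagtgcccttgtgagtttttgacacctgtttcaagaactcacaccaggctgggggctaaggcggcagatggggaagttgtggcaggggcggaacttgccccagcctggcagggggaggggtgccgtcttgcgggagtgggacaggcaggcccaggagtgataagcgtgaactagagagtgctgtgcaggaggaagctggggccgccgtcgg
PLA2G6 (chr22:38181781-38182080, minus strand): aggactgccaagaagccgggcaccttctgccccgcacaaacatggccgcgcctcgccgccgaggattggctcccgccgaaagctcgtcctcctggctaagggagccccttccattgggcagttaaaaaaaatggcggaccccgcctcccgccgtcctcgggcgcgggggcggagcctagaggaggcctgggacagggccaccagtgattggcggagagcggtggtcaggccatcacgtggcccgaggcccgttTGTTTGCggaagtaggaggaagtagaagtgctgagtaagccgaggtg

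PLA2G2A has 3 annotated starts, and its window farthest upstream held 2 matches, TGTTTAC beginning 89 bases and TATTTAC beginning 29 bases before the start site, while the other two windows held none. The PLA2G6 window held 1, just after the start site. A window was found for 40 of the 54 genes, and 5 of these genes (12.5%) had a match in at least 1 window: PLA2G2A, PLA2G6, PLCE1, PLCXD1 and PLCXD3. Over the whole RefSeq table, 14.4% of 27305 genes and 12.1% of 35116 windows had one. Of the genes with a window, 1 of 17 that fell and 2 of 11 that rose had a match. A match is a string of letters and was not tied to binding here. PLCB1, PLCB4, PLCB2, PLCD1, PLCD4, PLCXD2, PLD6, PLPP1, PLPP5, PLA2G1B, PLA2G2D, PLA2G4C, PNPLA3 and PNPLA7 had no window.

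The comparison asked which phospholipase genes differed between FOXA1 knockdown and control cells. Of the 41 tested genes, 39 had an adjusted p under 0.05 by the quasi-likelihood test of edgeR, against 77.1% of all 16430 genes tested. Of these, 25 were lower in knockdown (37.7% of all genes) and 14 were higher (39.4%). Called changes of 2-fold or more numbered 19 (28.3% of all genes), 11 of them downward (13.4%) and 8 upward (14.9%). The median log2 fold change was -0.45, beside 0.02 over all genes tested. The CPM ranges of the groups did not overlap for 38 genes (72.0% of all genes), 24 of them lower (35.0%) and 14 higher (36.9%). Of the tested genes, 7 averaged under 10 counts in 1 group and passed the filter only through the other (PLA2G2A, PLA2G2F, PLA2G10, PLCB1, PLCB4, PLPP7 and PNPLA7), so they had to differ. Counts and medians over tested genes therefore describe these genes only. The summed level of the 54 genes averaged 967.9 CPM ± 7.70 over the control libraries and 790.1 CPM ± 16.2 over the knockdown libraries (n = 4, SD). The control sum includes PLCB4 at 55.5 CPM and PLA2G2A at 10.8 CPM, whose falls were known when the genes were chosen.

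**Figure D1:**
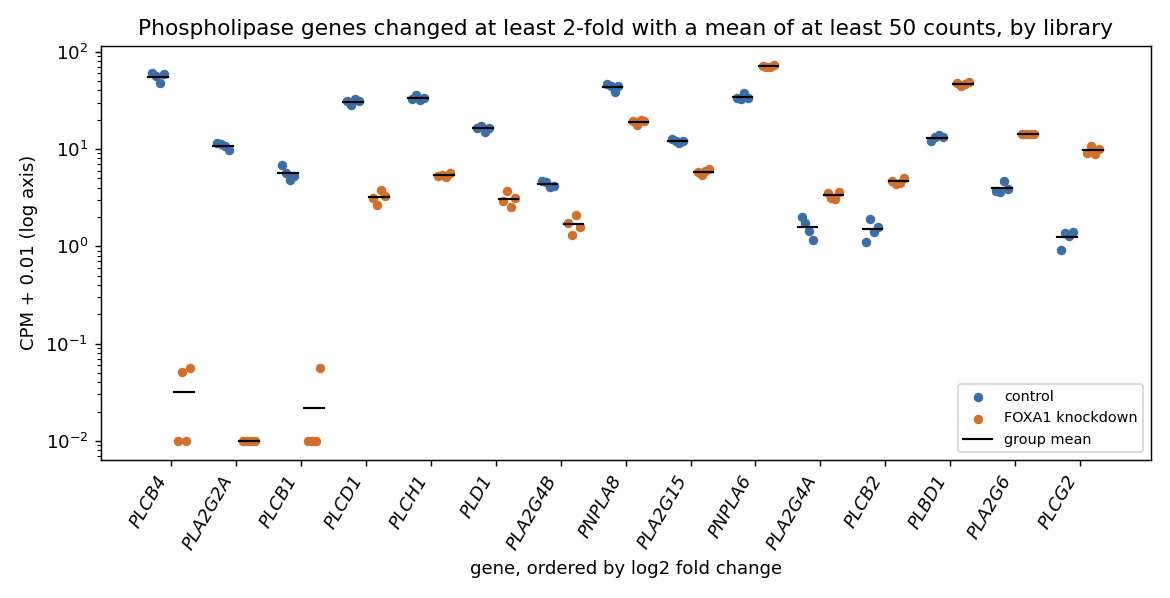
CPM plus 0.01 on a log axis in each of the 8 libraries for the 15 phospholipase genes that changed at least 2-fold with a mean of at least 50 counts in the higher group; points are libraries and bars are group means. PLCB4, PLA2G2A and PLCB1 lie at or near 0 in every knockdown library. The points of the groups do not overlap for any of the 15 genes, which were picked for their change. Among all genes tested, the groups did not overlap for 72.0%.

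The PLC isozymes differ in how they are switched on: beta forms by G protein subunits, gamma forms by tyrosine kinases, delta forms by calcium, epsilon by small GTPases, and eta forms are calcium-sensitive enzymes described mainly in neurons. Of 12 such genes, 11 were tested, 6 were lower, 4 were higher and PLCE1 did not pass the threshold. Over all genes tested, 37.7% were lower and 39.4% higher, and the family counts that follow stand beside the same shares.

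Nearly all counts were lost from PLCB4 (ENSG00000101333.16, chromosome 20, 9068763 to 9481242, plus strand, GENCODE 29), the beta isozyme known for phototransduction and signalling in the cerebellum. It had 1303, 1231, 1006 and 1365 counts in control libraries 1 to 4 and 0, 1, 0 and 1 in knockdown libraries 1 to 4. The lowest control library had 1006 counts and no knockdown library more than 1. Its level was 55.5 CPM ± 5.42 in control (SD, n = 4), and the depth-adjusted ratio of summed counts was 2480, with an exact 95% counting interval of 687 to 20500. This fall was known when the genes were chosen and is given as a description, with no test.

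PLCB1 (ENSG00000182621.18, chromosome 20, 8077251 to 8968360, plus strand) lies 100402 bp before PLCB4 and encodes a beta isozyme found at the membrane and in the nucleus. Its counts were 151, 126, 102 and 123 in control and 0, 0, 0 and 1 in knockdown. The groups were far apart, with a single count left in knockdown replicate 4. The depth-adjusted ratio was 508 (exact 95% counting interval 90.8 to 20100). PLCB1 passed the filter on low counts only through control, so no adjusted p is given.

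PLCB3 (ENSG00000149782.12), the most abundant phospholipase per length in both groups, kept most of its level. It had 2931, 2849, 2971 and 2991 counts in control and 2260, 2390, 1866 and 2207 in knockdown. Its log2 fold change was -0.45 (SE 0.038, adjusted p 1.34e-10), and it fell from 26.9 to 19.7 CPM per kb of merged exon.
PLCB2 (ENSG00000137841.12, chromosome 15, 40278176 to 40307935, minus strand), the beta isozyme best known from blood cells and taste receptor cells, went the other way. It had 24, 42, 29 and 36 counts in control and 110, 107, 87 and 109 in knockdown. Its log2 fold change was 1.64 (SE 0.17, adjusted p 4.04e-10), from a low level of 1.48 CPM ± 0.338 to 4.63 CPM ± 0.302 (n = 4, SD). The 4 beta genes together reached 196.1 CPM ± 3.99 in control against 102.4 CPM ± 3.41 in knockdown (n = 4, SD), and in knockdown nearly all of it was PLCB3, at 97.8 CPM. The control total includes PLCB4, at 55.5 CPM, whose fall was known when the genes were chosen. It also includes PLCB1, at 5.69 CPM, which passed the filter only through control.

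Both gamma isozymes, which bind phosphotyrosine on activated receptors such as those of the ERBB family, were higher. PLCG1 (ENSG00000124181.14), the widely expressed form, had 1215, 1281, 1404 and 1427 counts in control and 1658, 1821, 1427 and 1675 in knockdown. Raw counts of the groups met, but after scaling for depth they did not overlap, at 60.5 CPM ± 4.77 and 73.8 CPM ± 2.98 (n = 4, SD; log2 fold change 0.29, SE 0.0633, adjusted p 1.36e-05). PLCG1 shares 268 bp of exon with ZHX3 on the opposite strand.
PLCG2 (ENSG00000197943.10, chromosome 16, 81739097 to 81962693, plus strand), the form typical of blood cells and the target of B cell receptor signalling, had 20, 30, 27 and 32 counts in control and 214, 264, 174 and 218 in knockdown. The lowest knockdown library was more than 5 times the highest control library. Its log2 fold change of 2.97 (SE 0.152, adjusted p 1.07e-16) was the largest rise among the tested PLC genes, and it remained the less abundant gamma form, at 0.724 CPM per kb beside 7.65 for PLCG1.

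Delta isozymes were divided. PLCD1 (ENSG00000187091.14, chromosome 3, 38007496 to 38029762, minus strand), which anchors to the membrane through its pleckstrin homology domain, had 686, 618, 686 and 716 counts in control and 74, 65, 74 and 70 in knockdown. Libraries of a group were close together and the groups 9.59-fold apart (log2 fold change -3.27, SE 0.112, adjusted p 2.07e-21). PLCD3 fell less, from 68.2 CPM ± 3.23 to 44.6 CPM ± 1.37 (n = 4, SD; log2 fold change -0.61, SE 0.0402), and was the leading delta gene in both groups. PLCD4 was higher, from 4.04 CPM ± 0.75 to 5.82 CPM ± 0.374 (n = 4, SD; log2 fold change 0.53, adjusted p 0.000357). It overlaps an antisense gene by 506 bp.

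The eta isozyme gene PLCH1 (ENSG00000114805.18, chromosome 3, 155375580 to 155745067, minus strand) had 717, 781, 679 and 776 counts in control and 124, 133, 102 and 121 in knockdown. It fell 6.23-fold with little spread in either group (log2 fold change -2.64, SE 0.0382, adjusted p 8.44e-22). PLCH2 had at most 11 counts in any library and was not tested. PLCE1, which also carries a domain that activates RAS-type GTPases, had 555 to 752 counts in control and 530 to 683 in knockdown. Its groups overlapped (log2 fold change -0.11, SE 0.0652, adjusted p 0.0985). Without control replicate 3 the value was -0.16 with an adjusted p of 0.00894.

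PLCL2, a PLC-like protein that lacks catalytic activity and binds inositol phosphates, had 277, 279, 253 and 293 counts in control and 561, 572, 458 and 482 in knockdown, a log2 fold change of 0.89 (SE 0.0278, adjusted p 6.51e-13). Its relative PLCL1 was not counted in any control library and had 1 to 6 counts in knockdown, too few for a test. Among the genes with only an X domain, PLCXD1, which lies in the pseudoautosomal region of the sex chromosomes, rose from 35.9 CPM ± 0.992 to 53.3 CPM ± 0.744 (n = 4, SD; log2 fold change 0.57, adjusted p 1.14e-11). With the median of its 50 nearest tested genes removed it was at 0.02 (adjusted p 0.712). PLCXD2 had 45, 30, 36 and 42 counts in control and 25, 40, 22 and 23 in knockdown, with overlapping groups, and 322 bp of its exons are shared with PHLDB2 on the same strand. Its adjusted p of 0.0297 passed the threshold in the test used but missed it in 8 of 15 alternatives, reaching 0.0994. Those included leaving out control replicate 1 or 4 or knockdown replicate 1, 3 or 4, with log2 fold changes of -0.41 to -0.48. PLCXD3 had at most 1 count in control and 6 to 11 in knockdown, below the filter.

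**Figure D2:**
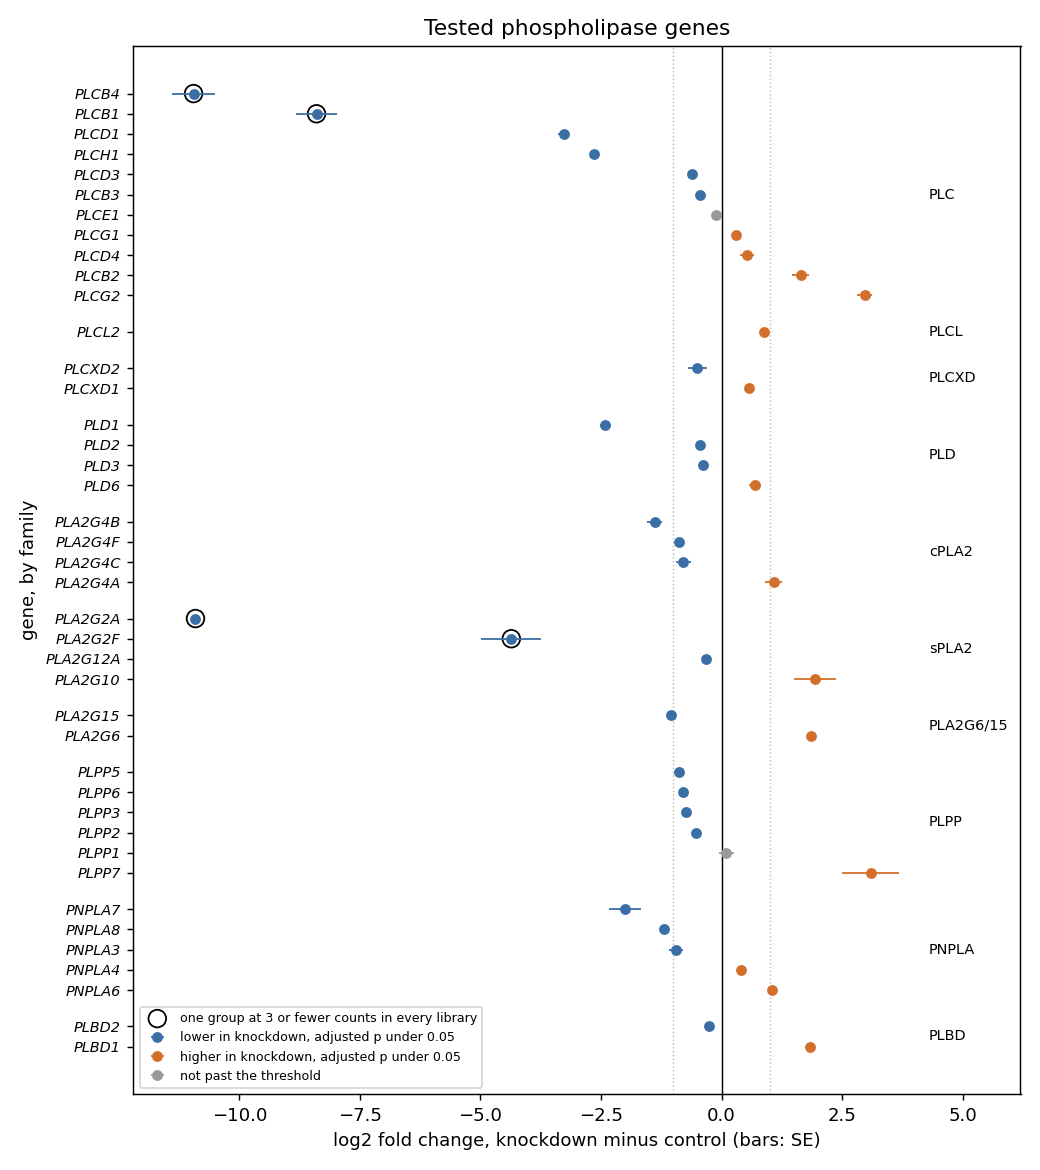
Log2 fold change (knockdown minus control) of the 41 tested phospholipase genes by family, with standard errors as bars and dotted lines at a 2-fold change; black rings mark genes with 3 or fewer counts in every library of 1 group, whose fitted value depends on the prior count. PLCB4, PLA2G2A, PLCB1 and PLA2G2F stand apart on the left, and the highest value on the right is that of PLPP7 at 3.09.

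PLD1 and PLD2 make phosphatidate from phosphatidylcholine. PLD1 (ENSG00000075651.16, chromosome 3, 171600405 to 171810950, minus strand), a form activated by protein kinase C, had 357, 379, 317 and 382 counts in control and 69, 89, 49 and 67 in knockdown. The groups were 5.34-fold apart without overlap (log2 fold change -2.41, SE 0.119, adjusted p 1.91e-17). PLD2, the form with high basal activity, fell from 23.8 CPM ± 1.13 to 17.4 CPM ± 1.02 (n = 4, SD; log2 fold change -0.45, SE 0.0536). Per kb of exon PLD2 was above PLD1 in both groups, at 4.87 against 1.27 CPM in control and 3.56 against 0.237 CPM in knockdown.
PLD3, a lysosomal exonuclease despite its name, fell from 57 CPM ± 2.76 to 43.5 CPM ± 2.03 (n = 4, SD; log2 fold change -0.39). PLD6, the mitochondrial member, had 127 to 155 counts in control and 183 to 268 in knockdown (log2 fold change 0.70, adjusted p 1.11e-06). The reads of PLD6 are uncertain because 176 bp of its exons lie opposite MPRIP, which averaged 5272.5 counts.

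Secreted PLA2 enzymes are small, calcium-dependent proteins that act outside the cell. PLA2G2A (ENSG00000188257.11, chromosome 1, 19975431 to 19980416, minus strand), the group IIA enzyme known from inflammatory fluids and from killing of bacteria, had 253, 247, 225 and 227 counts in control and 0 in each of the 4 knockdown libraries. The control level of 10.8 CPM ± 0.782 (SD, n = 4) was at least 70.8-fold above the limit that 3 counts set in the smallest knockdown library. This loss too was known when the genes were chosen, so no test is given.

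The neighbouring PLA2G2F (ENSG00000158786.5, chromosome 1, 20139326 to 20150386, plus strand), a skin enzyme, had 31, 34, 36 and 30 counts in control and 0, 3, 1 and 2 in knockdown. Its depth-adjusted ratio was 22.1 (exact 95% counting interval 9.88 to 61.3). PLA2G2F passed the filter only through control, so no adjusted p is given. PLA2G2C, beside it, had 7, 10, 10 and 6 counts in control and 1, 0, 0 and 0 in knockdown and was below the filter. PLA2G2D had at most 1 count in any library.
PLA2G12A, an atypical secreted enzyme, was the most abundant secreted PLA2 gene in both groups, at 15 CPM per kb in control and 11.9 in knockdown (log2 fold change -0.33, SE 0.0361). PLA2G10, a strongly active secreted form, rose from 15, 13, 4 and 6 counts to 44, 36, 30 and 39 (log2 fold change 1.94, SE 0.431). It passed the filter only through knockdown, so no adjusted p is given. PLA2G1B and PLA2G12B had at most 1 and 3 counts.

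Cytosolic PLA2 enzymes of group IV release arachidonate inside the cell. PLA2G4A (ENSG00000116711.10, chromosome 1, 186828953 to 186988981, plus strand), the arachidonate-selective form, had 43, 38, 30 and 27 counts in control and 82, 76, 60 and 78 in knockdown (log2 fold change 1.08, SE 0.174, adjusted p 2.11e-06). It was the only group IV gene that rose among the 4 tested. PLA2G4B (ENSG00000243708.10, chromosome 15, 41837775 to 41848147, plus strand) had 102, 101, 85 and 97 counts in control and 41, 32, 41 and 34 in knockdown (log2 fold change -1.39, SE 0.148, adjusted p 4.88e-09). Its reads are uncertain, since 3360 bp of its 4446 bp of exon are shared with the read-through gene JMJD7-PLA2G4B.
PLA2G4F had 103 to 142 counts in control and 56 to 83 in knockdown (log2 fold change -0.88), and PLA2G4C had 45 to 57 and 20 to 35 (log2 fold change -0.79). PLA2G4D and PLA2G4E had at most 4 counts in any library.

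The other PLA2 genes were divided. PLA2G6 (ENSG00000184381.20, chromosome 22, 38111495 to 38205690, minus strand), the calcium-independent enzyme of membrane remodelling, had 81, 79, 98 and 90 counts in control and 331, 352, 281 and 307 in knockdown. Its knockdown libraries averaged 14.3 CPM ± 0.15 (SD, n = 4), well above 3.96 CPM ± 0.48 in control (log2 fold change 1.85, SE 0.0837, adjusted p 8.32e-16). An antisense gene overlaps 1518 bp of its exons. PLA2G15 (ENSG00000103066.13, chromosome 16, 68245304 to 68261062, plus strand), the lysosomal enzyme, had 275, 266, 240 and 281 counts in control and 135, 132, 117 and 134 in knockdown (log2 fold change -1.05, SE 0.0514, adjusted p 1.78e-11). PLA2G7, which degrades platelet-activating factor, had 2 counts in 1 knockdown library and 0 elsewhere.

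Phospholipid phosphatases remove phosphate from phosphatidate, lysophosphatidate and related lipids at membranes. Of 7 genes 6 were tested, and 4 were lower, beside 37.7% of all genes tested. Each fell by less than 2-fold: PLPP5 by 0.89, PLPP6 by 0.79, PLPP3 by 0.74 and PLPP2 by 0.53 on the log2 scale, all with adjusted p of at most 3.09e-08. PLPP3, the most abundant of them per length in control, had 670, 725, 690 and 741 counts in control and 453, 479, 340 and 448 in knockdown. PLPP1 had 80, 87, 106 and 80 counts in control and 87, 96, 94 and 104 in knockdown, which overlapped (log2 fold change 0.10, SE 0.154, adjusted p 0.523). PLPP1 also shares 481 bp of exon with MTREX on the opposite strand. PLPP7, a member found at the nuclear envelope and thought to be inactive, had 6, 7, 3 and 1 counts in control and 47, 26, 34 and 43 in knockdown (log2 fold change 3.09, SE 0.585). It passed the filter only through knockdown, so no adjusted p is given. PLPP4 had at most 1 count in any library.

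Patatin-like genes moved in both directions. PNPLA6 (ENSG00000032444.17, chromosome 19, 7534004 to 7561764, plus strand), a lysophospholipase of the endoplasmic reticulum also called neuropathy target esterase, had 735, 728, 790 and 774 counts in control and 1668, 1692, 1371 and 1586 in knockdown (log2 fold change 1.04, SE 0.0465, adjusted p 2.23e-16). Its closest relative PNPLA7 had 33, 23, 26 and 35 counts in control and 13, 7, 5 and 4 in knockdown (log2 fold change -2.01, SE 0.332). PNPLA7 passed the filter only through control, so no adjusted p is given. PNPLA8 (ENSG00000135241.17, chromosome 7, 108470422 to 108569666, minus strand), a calcium-independent PLA2 of mitochondria and peroxisomes, had 1004, 972, 805 and 1035 counts in control and 451, 435, 387 and 414 in knockdown (log2 fold change -1.19, SE 0.067, adjusted p 1.39e-15). PNPLA8 shares 177 bp of exon with THAP5 on the same strand and 99 bp with DNAJB9 on the opposite strand. The groups of all 3 genes were separate.
PNPLA3, a lipid droplet protein, had 45 to 58 counts in control and 23 to 33 in knockdown (log2 fold change -0.94; 148 bp of exon shared with SAMM50), and PNPLA4, a retinyl ester hydrolase, had 183 to 216 and 239 to 305 (log2 fold change 0.40, adjusted p 0.000139). With the median of the 50 nearest tested genes removed, PNPLA4 turned to -0.20 (adjusted p 0.0329). PNPLA1 and PNPLA5 had at most 4 and 1 counts.

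The B-domain genes encode lysosomal proteins. PLBD1 (ENSG00000121316.11, chromosome 12, 14503661 to 14568349, minus strand) had 264, 291, 292 and 307 counts in control and 1113, 1085, 918 and 1053 in knockdown, a rise of 3.57-fold (log2 fold change 1.84, SE 0.0496, adjusted p 3.81e-20). PLBD2 fell slightly, from 77.4 CPM ± 3.07 to 64.3 CPM ± 2.21 (n = 4, SD; log2 fold change -0.27). Per kb of exon PLBD1 was below PLBD2 in control, at 4.61 against 14.7 CPM, and above it in knockdown, at 16.5 against 12.2 CPM.

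Compared per length of merged exon, the order of the genes was partly rearranged. In control the highest levels were those of PLCB3 (26.9 CPM per kb), PLA2G12A (15), PLBD2 (14.7), PLD3 (11) and PLCD3 (10.1), followed by PLCB4 (8.05). In knockdown PLCB3 (19.7 CPM per kb) was followed by PLBD1 (16.5), PLBD2 (12.2), PLA2G12A (11.9) and PNPLA6 (9.88). PLCB4, PNPLA8, PLCD1 and PLA2G2A, which ranked sixth to ninth in control, were no longer among the first 10.

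**Figure D3:**
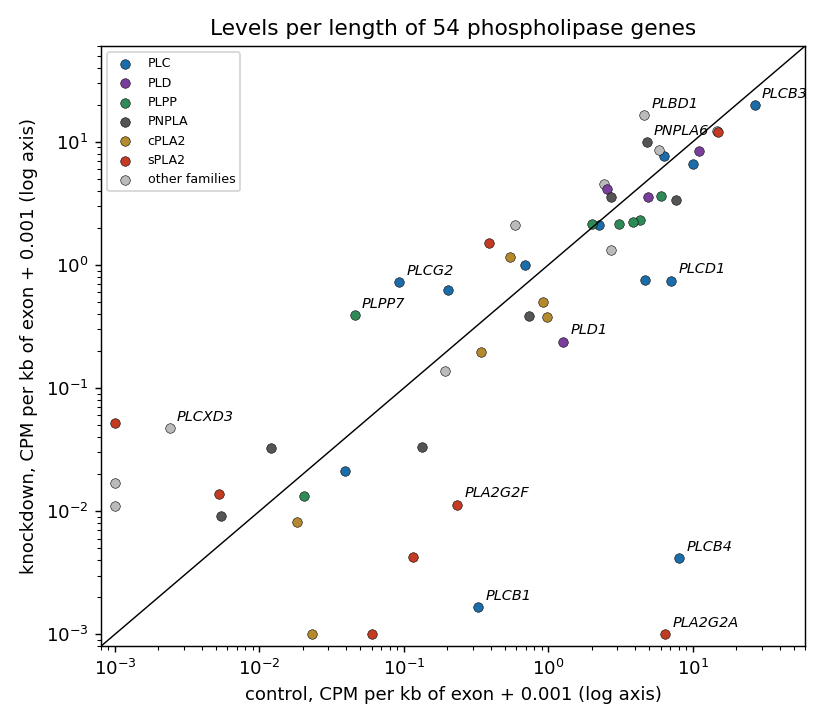
Mean level of each of the 54 phospholipase genes in control (x axis) and knockdown (y axis), in CPM per kb of merged exon plus 0.001 on log axes, coloured by family; the line marks equal levels. PLCB4 and PLA2G2A lie far below the line at control levels of 8.05 and 6.42 CPM per kb, and PLBD1 and PLCG2 lie above it.

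Several of these genes sit beside each other, so the genes around the lost pairs were examined. Around PLCB1 and PLCB4, 6 further protein-coding entries within 1 Mb averaged at least 50 counts in either group. TMX4, next to PLCB1, rose from 1.33 to 18.3 CPM (log2 fold change 3.77, adjusted p 1.01e-20). On the other side ANKEF1 had a log2 fold change of -0.32 and SLX4IP of -0.17, and the 3 entries under the symbol MKKS lay between -0.38 and 0.02. None of these neighbours approached the floor.
Around the PLA2G2 genes, 18 such genes had a median log2 fold change of 0.05, with 6 lower, 8 higher and 4 not past the threshold. SH2D5, among the higher, averaged under 10 counts in control and passed the filter only through knockdown, so it had to differ. Over all genes tested, 37.7% were lower and 39.4% higher. OTUD3, the nearest on the side of PLA2G2A, was at 0.27, and CAMK2N1, the nearest on the side of PLA2G2C, was at -0.58. The lowest of the 18 was AKR7A3 at -2.55.

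**Figure D4:**
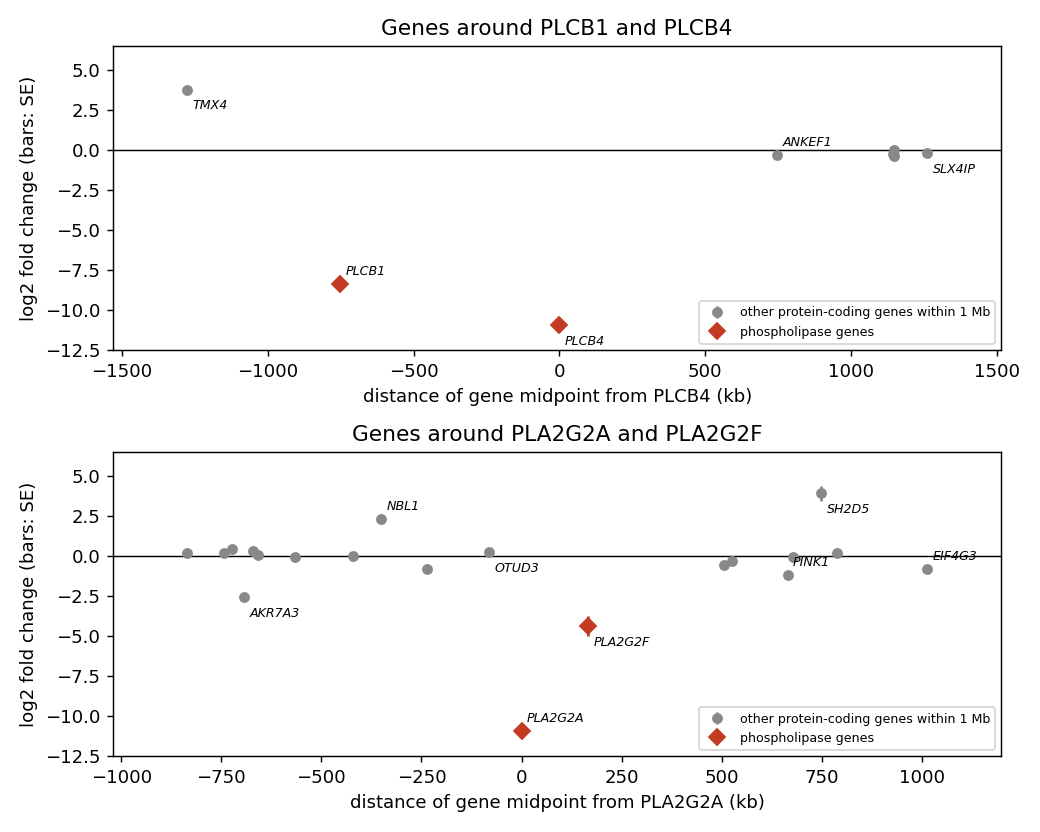
Log2 fold change (knockdown minus control, bars show SE) of protein-coding genes within 1 Mb, by distance of the gene's midpoint from PLCB4 (top) or PLA2G2A (bottom) in kb; diamonds are phospholipase genes and circles are other genes averaging at least 50 counts in 1 group. PLCB1 and PLCB4 lie below -8 and PLA2G2F at -4.36, while the circles lie between -2.55 and 3.92.

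Each gene was also set against the median of its 50 nearest tested genes, an alternative chosen after seeing the data. That median was 0.56 for PLCXD1 and 0.60 for PNPLA4, both on chromosome X. Removing it ended the call of PLCXD1 and turned the sign of PNPLA4, as given above. It also reduced PLA2G4F to -0.31, PLPP6 to -0.29, PLPP2 to -0.19, PLCB3 to -0.15, PLA2G12A to -0.20, PLA2G4B to -0.85 and PLCG1 to 0.15. It moved PLD3 to -0.75, PLCXD2 to -0.76 and PLCE1 to -0.47 (adjusted p 6.69e-08). PLCB4, PLCB1, PLCD1 and PLCH1 stayed at -10.94, -8.40, -3.12 and -2.45.

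The partners of PLC were described from a list of 26 genes, of which 24 had a row and 22 were tested. Of these, 13 were lower and 8 higher, with a median log2 fold change of -0.37. GNA14, ITPKA, PIP5K1B, PRKCB and RASGRP2 averaged under 10 counts in 1 group and passed the filter only through the other. These genes had to differ, so the counts and median describe the tested genes only. Over all genes tested 37.7% were lower and 39.4% higher, with a median of 0.02, and the lists that follow stand beside the same shares. Protein kinase C genes, whose products respond to diacylglycerol, moved in both directions. Large falls were those of PRKCH from 28 CPM ± 0.808 to 1.01 CPM ± 0.23 and PRKCD from 256.2 CPM ± 10.8 to 32.4 CPM ± 1.02 (n = 4, SD). PRKCA and PRKCE had log2 fold changes of -0.81 and -0.82. PRKCB rose from at most 1 count in a control library to 37, 38, 25 and 24 counts, a depth-adjusted ratio of 123 (exact 95% counting interval 21.6 to 4880). ITPR1, an inositol trisphosphate receptor, fell from 31.4 CPM ± 0.505 to 6.31 CPM ± 0.705 (n = 4, SD; log2 fold change -2.31). ITPR3, the most abundant receptor of the 3, had a log2 fold change of -0.75 and ITPR2 of 0.48.
The largest rise was in PIP5K1B, a kinase that makes the PLC substrate, from at most 1 count in a control library to as many as 484 in a knockdown library, a depth-adjusted ratio of 1760 (exact 95% counting interval 316 to 69700). RASGRP2, an exchange factor for RAP GTPases, rose from at most 4 counts in a control library to 6.09 CPM ± 0.54, and RASGRP3 to 4.51 CPM ± 0.375 from 1.16 CPM ± 0.309 (n = 4, SD). The G protein genes upstream of the beta isozymes moved apart, with GNAQ at 0.56 and GNA11 at -0.81 on the log2 scale. GNA14, of the same family, had 34, 34, 28 and 20 counts in control and 1, 0, 0 and 0 in knockdown, a depth-adjusted ratio of 117 (exact 95% counting interval 20.7 to 4680).

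Genes that use diacylglycerol or phosphatidate numbered 22, with 19 tested, 10 lower and 4 higher (median -0.18). The diacylglycerol kinases DGKZ and DGKD had log2 fold changes of -2.06 and -1.25, and CDS1, which makes CDP-diacylglycerol, of -1.03. The rises were 0.79 for DGKQ, 0.76 for the phosphatidate phosphatase LPIN1 and 0.19 for AGPAT1. The kinase gene DGKA, at a mean below 50 counts, rose by 1.30, from 10 to 19 counts in control to 26 to 51 in knockdown.

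Eicosanoid genes, which act on the arachidonate that PLA2 frees, numbered 20, with 11 tested, 5 lower and 5 higher (median 0.05). PTGS1, PTGER3, ALOX15 and ALOX5 averaged under 10 counts in 1 group and passed the filter only through the other. They had to differ, so these counts describe the tested genes only. With a minimum mean of 50 counts 2 were lower and 3 higher. PTGS1, the constitutive cyclooxygenase, fell from 27.9 CPM ± 0.76 to 0.177 CPM ± 0.0369 (n = 4, SD), and PTGS2, the inducible form, was at or under the floor in both groups. PTGER4, a prostaglandin E receptor, had a log2 fold change of -1.52 and LTA4H, of leukotriene synthesis, of -0.18. At means below 50 counts, PTGER3, another prostaglandin E receptor, had 32 to 59 counts in control and 1 to 3 in knockdown. ALOX15 had 18 to 35 and 5 to 8. PTGES, a prostaglandin E synthase, rose from 77.5 CPM ± 2.71 to 249.9 CPM ± 7.15 (n = 4, SD). LTC4S and PTGES3 also rose, with log2 fold changes of 1.04 and 0.51. ALOX5, which starts leukotriene synthesis, reached 4.16 CPM ± 0.307 (n = 4, SD) from at most 2 counts in a control library, a depth-adjusted ratio of 61.4 (exact 95% counting interval 28 to 168), and PTGDS had a log2 fold change of 1.31.

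Genes for lysophospholipids, the other product of PLA2, numbered 20, with 14 tested, 9 lower and 5 higher (median -0.31). The acyltransferase MBOAT2 had a log2 fold change of -1.59, the sphingosine phosphate receptor S1PR3 of -1.80 and the lysophosphatidate receptor LPAR2 of -1.26. LPAR5 rose from 0.553 CPM ± 0.0953 to 23.3 CPM ± 0.68 and MBOAT1 from 5.53 CPM ± 0.277 to 53.8 CPM ± 0.921 (n = 4, SD), while MBOAT7 had a log2 fold change of 0.97. Of 17 phospholipases and related genes outside the symbol rule, 13 were tested, 5 were lower and 6 higher (median 0.23). LIPH, which makes lysophosphatidate, fell from 25.3 CPM ± 0.887 to 2.13 CPM ± 0.344, and PLA2R1, the receptor for secreted PLA2, from 10.5 CPM ± 0.727 to 2.50 CPM ± 0.461 (n = 4, SD). ABHD4 had a log2 fold change of -0.54. PLAAT3, ABHD6 and DDHD2 rose, with log2 fold changes of 1.92, 1.63 and 0.44.

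**Figure D5:**
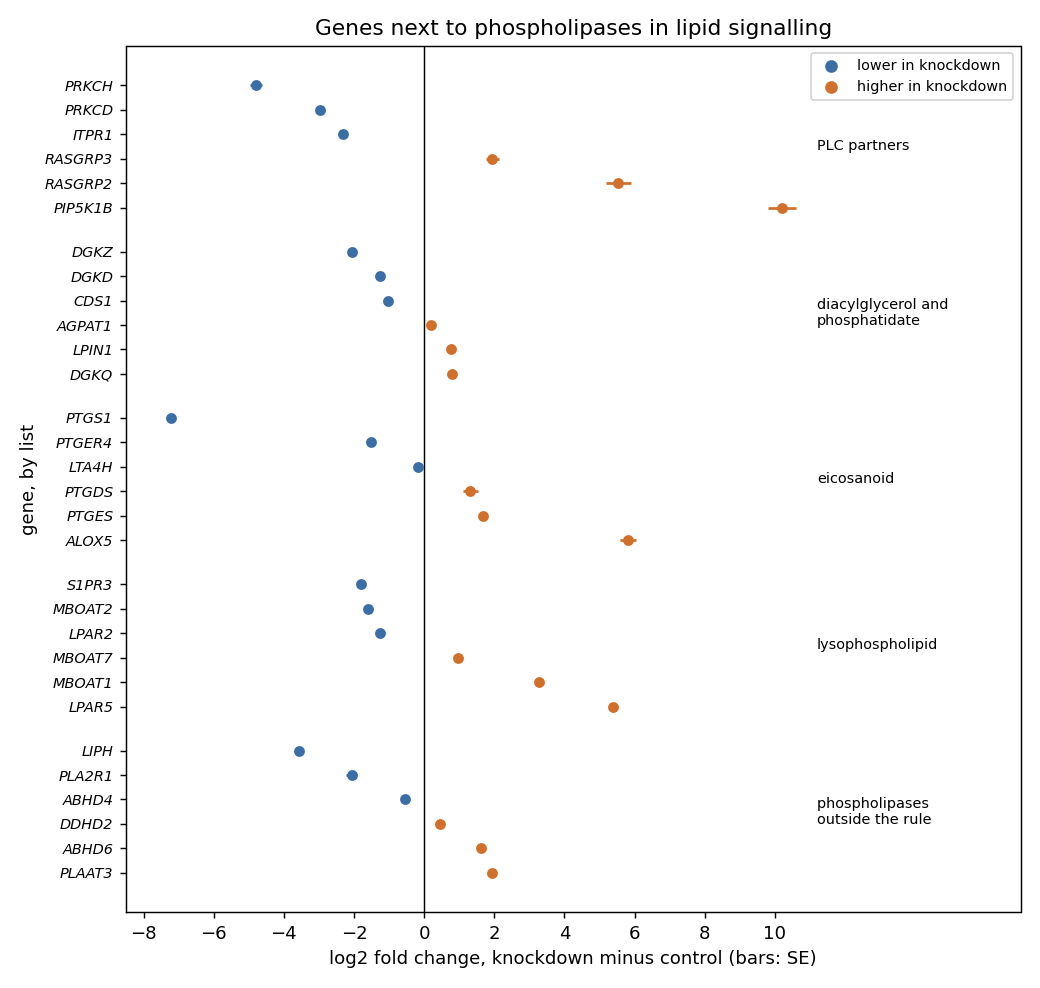
Log2 fold change (knockdown minus control, bars show SE) of the 3 largest falls and 3 largest rises in each of 5 lists of genes that work beside phospholipases, among genes past the threshold with a mean of at least 50 counts in the higher group. PTGS1 at -7.23 is the lowest value and PIP5K1B, with at most 1 count in a control library, the highest.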

How the data were processed

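RNA of SKBR3 cells was extracted with Trizol and sequenced on a NextSeq instrument with paired reads of 101 bp, per the labels' protocols. The authors deposited whole-number counts per gene. The submitters' processing notes name Salmon 1.9, FastQC, DESeq2 and hg38 without their roles. Salmon estimates counts, so the deposited counts may be rounded estimates, and reads of overlapping genes may be shared between them. Use of strand and the annotation release are not given in the sources used here.

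Groups came from the sample titles. edgeR 4.0.16 in R 4.3.3 was run on all 30434 genes. filterByExpr (minimum 10, total 15 counts) left 16430 genes, scaled by TMM and tested with glmQLFit (robust) and glmQLFTest. The p-values were adjusted by the Benjamini-Hochberg method across these 16430 genes, with a threshold of 0.05. Fitted values use a prior count of 0.125. Standard errors come from log2 CPM with 0.5 added to counts. For a group with 0 counts throughout, the fold is a lower bound that takes 3 counts in its smallest library. Where they had 1 to 3, the ratio has an exact 95% interval. Both cover counting error only. On simulated counts with 200 of 16430 genes changed, 193 (96.5%) were recovered in the correct direction, along with 11 false calls. The simulation gave every gene the same spread and changed few of them, each by at least 2-fold. In the data 77.1% of genes were called, so these rates may not carry over.

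Positions and exon lengths come from GENCODE 29 (GRCh38), matched for 54 of the 54 genes. Promoter windows come from RefSeq (GRCh38.p14). Full values are given for genes past the threshold with at least a 2-fold change and a mean of at least 50 counts in the higher group, and for PLCB4 and PLA2G2A. From each list the 3 largest falls and rises at that mean are named; others were chosen after their values were seen. The genes and lists were chosen with earlier results of these data known. Alternatives were RLE scaling, library size only, other filters, DESeq2 1.42.0, limma 3.58.1 (voom), a replicate block, leaving out each library, and the offset for neighbouring genes.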

Additional observations from a re-analysis of the deposited data

Results flagged for a closer look

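A library was picked out where the gap between it and its closest fellow took up more of the group's range than Dixon's 95% criterion for 4 values allows. This was done for the 41 tested phospholipase genes and FOXA1 in both groups, 84 groups of 4 values in all. It picked out 4, where chance gives about 4.2. PLCB1 was highest in knockdown replicate 4, at 0.0463 CPM, which is 1 count against 0 in the others. PLCL2 was low in control replicate 3 (12 CPM against 12.6 to 12.7), and PNPLA6 was high in the same library (37.5 CPM against 33.0 to 33.7). PLCXD2 was high in knockdown replicate 2 (1.64 CPM against 1.06 to 1.12). No cause was tested for these.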

How the results depend on the processing

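Of the 41 tested genes, 36 kept their direction and their side of the threshold under every alternative that tested them, and PLCE1, PLCXD1, PLCXD2, PLPP1 and PNPLA4 did not. Counts of genes called lower ranged from 20 to 28 and of genes called higher from 12 to 16, against 25 and 14. The lowest counts came from a minimum mean of 50 counts, which left 34 of the genes and gave 20 lower and 12 higher. The highest came with no filter and all 54 tested, 28 lower and 16 higher, beside 7154 and 7874 of all 30434 genes. The offset gave 27 lower and 12 higher. Leaving out 1 library gave 24 to 26 lower and 14 higher, and FOXA1 stayed between -5.64 and -5.55 on the log2 scale. The offset for neighbouring genes turned PNPLA4 to -0.20 and PLPP1 to -0.12 (adjusted p 0.409); the cause was not tested. Scaling by library size moved the median of all genes by 0.084. Replicate numbers did not pair the libraries: correlations of deviations between libraries with the same number lay between -0.0375 and 0.052. With the replicate block 24 genes were lower and 14 higher, PLCXD2 being lost (adjusted p 0.0547), and FOXA1 was at -5.60. Depth limits the 13 genes below the filter, for which no difference was tested.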
